A study of Cyprinus carpio 'koi' with 9 samples.

Results

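In 9 poly(A) RNA-seq libraries of Koi carp skin, 3 long non-coding RNAs (lncRNAs) were followed: TRINITY_DN147593_c0_g1, TRINITY_DN152783_c3_g1 (named Ccr_lnc15278331 by the study) and TRINITY_GG_131643_c58_g1 (named Ccr_lnc131643581). They are 3 of 446614 assembled genes, the features of the deposited tables, and 3 of the 92 lncRNAs in the study's supplementary lists of differential expression. They were chosen on measured values of these same libraries, because each exceeded 200 FPKM (read pairs scaled by effective length and by the assigned read pairs of the library) in at least 1 library and was listed for at least 1 pair of colors. DN147593_c0_g1 was listed for red against white and red against black skin, and the other 2 for black against white skin. The libraries above the threshold enter most other pairs too, so that fold changes are given as a description without a test, except for Ccr_lnc15278331 between red and black skin. Nothing is read from that test either, because the black libraries also entered the listing of this lncRNA. For DN147593_c0_g1 and Ccr_lnc131643581, the FPKM in those lists differ from the deposited ones in libraries numbered 2 only (of 1 to 3 per color). For Ccr_lnc15278331 they differ in libraries numbered 1 and 3. The lists may rest on another quantification. Only deposited values are used below. A ranking of all 92 listed lncRNAs showed that these 3 are not the most abundant ones, since 7 others also passed 200 FPKM and 4 of them lay above all 3.

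The libraries came from FFRC-strain Koi carp bearing black, white and red patches on the same body, and comprised 3 libraries of each color, black (BS), red (RS) and white (WS), numbered 1 to 3. No treatment separated the groups, age is not stated, and the labels and methods give different mean weights. Whether an equal number marks the same fish is not spelled out in either source. The labels name 3 carp as the source, and p-values measure the spread between these libraries only. RNA came from whole patches of skin, and in such bulk tissue fewer cells of a type and less RNA per cell cannot be told apart.

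Skin color in fish arises from several kinds of pigment cell: melanophores hold black melanin, xanthophores and erythrophores hold yellow to red pigments, and iridophores carry reflecting platelets. Long non-coding RNAs are long transcripts without apparent protein-coding capacity. Some act on neighboring genes in cis, some act at distant loci in trans, and for many no function is known. No tested function is annotated for any of the 3 lncRNAs in the sources used here. From correlated expression the paper predicts Tyk2 as a trans target of many lncRNAs, Ccr_lnc15278331 and Ccr_lnc131643581 among them, in its table on melanogenesis. That prediction was not tested here.

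DN147593_c0_g1 was assembled as 2 isoforms and had a mean transcript length of 308 to 315 bp, depending on the library. Ccr_lnc15278331 comprised 12 isoforms with a mean length between 363 and 3048 bp. In the supplementary annotation 2 of its isoforms are similar to zebrafish lncRNAs, whereas a description attached to the same feature is a partial hypothetical protein of the duck. Ccr_lnc131643581 comprised 2 isoforms of 349 to 470 bp. For this lncRNA the study's quantitative PCR primers are shown, without a check of their position, since no transcript sequence was available. They stand under the name Ccr_lnc13164358, which lacks the last digit, and the cluster and component numbers in that name occur in 1 assembled gene only, TRINITY_GG_131643_c58_g1. Both are given 5′ to 3′ in lower case.
Forward primer: agaatagccgttcggtta
Reverse primer: ttgtcacgaggcagtttaca

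The libraries held between 13773868 and 25002494 expected counts. The 3 libraries numbered 2 stood apart in fragment size, taken as the median difference between transcript length and effective length over long features only. This median was 346 to 359 bp there, against 283 to 294 bp in the other 6. A single feature held 41.1% of all TPM (transcript shares scaled to the same total in every library) in black library 2, 18.1% in red library 2, 16.4% in red library 1 and 14.5% in white library 2. Skin markers were not looked up by gene name, because the deposited features carry none, and features under terms of the study's enrichment lists were used instead. A list of 25 pigment features, chosen by the study on these libraries, summed to 21.1 to 128 TPM in BS, 10.2 to 51.5 in RS and 22.6 to 76.2 in WS, with 12 to 21 features above 0. A list of 29 muscle features summed to 9.12 to 10025 TPM in BS, 14.2 to 715 in RS and 223 to 292 in WS, with 6 to 27 above 0, and black library 1 held the value of 10025. None of the 3 lncRNAs was highest in black library 1, and the part of muscle RNA in their levels was not tested.

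DN147593_c0_g1 was at its highest in red skin, in a single library. Its TPM was 1007 in red library 1, 18.5 in red library 2 and 4.27 in red library 3. In white skin it reached 196 TPM in white library 1, 62.2 in white library 2 and 0.87 in white library 3, and in black skin 103 in black library 1, 7.07 in black library 2 and 13.7 in black library 3. The 3 libraries numbered 1 were the highest of all 9, and red library 1 alone held 71.3% of the TPM summed over the 9 libraries. The means were 343 ± 575 TPM in RS, 86.3 ± 99.8 in WS and 41.4 ± 53.8 in BS (SD, n = 3), so that the SD exceeded the mean in each color and the 3 colors overlapped. By rank among all features of a library, counted from the highest TPM, it stood at position 121 in red library 1, 5043 in red library 2 and 18221 in red library 3. It took position 514 in white library 1, 1365 in white library 2 and 72261 in white library 3, and position 844 in black library 1, 8562 in black library 2 and 6762 in black library 3. It was therefore among the 1000 most abundant features in 3 of 9 libraries, all numbered 1. These levels rested on 1562 expected counts in red library 1, on 63.5 to 225 in black library 1, white library 1 and white library 2, and on 1 to 19 in the other 5 libraries.

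Ccr_lnc15278331 was abundant in 1 white library. It reached 135 TPM in white library 2, against 0.86 in white library 1 and 0.35 in white library 3. In red skin it was measured at 1.8 TPM in red library 1, 7.76 in red library 2 and 0.07 in red library 3, and in black skin at 0.66 in black library 1, 4.96 in black library 2 and 0.03 in black library 3. White library 2 thus held 89.1% of its TPM over the 9 libraries, and every other library stayed below 8 TPM. The mean was 45.4 ± 77.6 TPM in WS, 3.21 ± 4.03 in RS and 1.88 ± 2.68 in BS (SD, n = 3), and the colors overlapped. Its rank was 577 in white library 2, 63276 in white library 1 and 105879 in white library 3. In red skin it ranked 17806, 13486 and 132369 in libraries 1, 2 and 3, and in black skin 54898, 12577 and 160082. Hence white library 2 was the only library in which it was among the first 1000 features. The expected count was 556 in white library 2, 54.2 to 70.7 in the other libraries numbered 2, 15.1 to 18.6 in those numbered 1 and 1.72 to 8.13 in those numbered 3.

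Ccr_lnc131643581 varied least of the 3 lncRNAs over the 9 libraries, as measured by the ratio of its highest to its lowest TPM, which was 117 against 1158 for DN147593_c0_g1 and 4500 for Ccr_lnc15278331. In black skin its TPM was 127 in black library 1, 2.29 in black library 2 and 267 in black library 3. In red skin it was 84.2 in red library 1, 17.8 in red library 2 and 88.9 in red library 3, and in white skin 121 in white library 1, 4.22 in white library 2 and 86 in white library 3. The libraries numbered 2 were the lowest of each color, and black library 3 was the highest of all 9. The mean was 132 ± 133 TPM in BS, 70.4 ± 59.9 in WS and 63.7 ± 39.7 in RS (SD, n = 3), again with overlapping colors. It ranked 748, 27398 and 407 in black libraries 1, 2 and 3. The ranks were 681, 5293 and 966 in red libraries 1, 2 and 3, and 747, 24594 and 1049 in white libraries 1, 2 and 3. It was thus among the first 1000 features in 5 of 9 libraries, none of them numbered 2. Between 189 and 687 expected counts lay behind the 6 libraries numbered 1 and 3, and 13.8 to 57.6 behind those numbered 2.

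**Figure D1:**
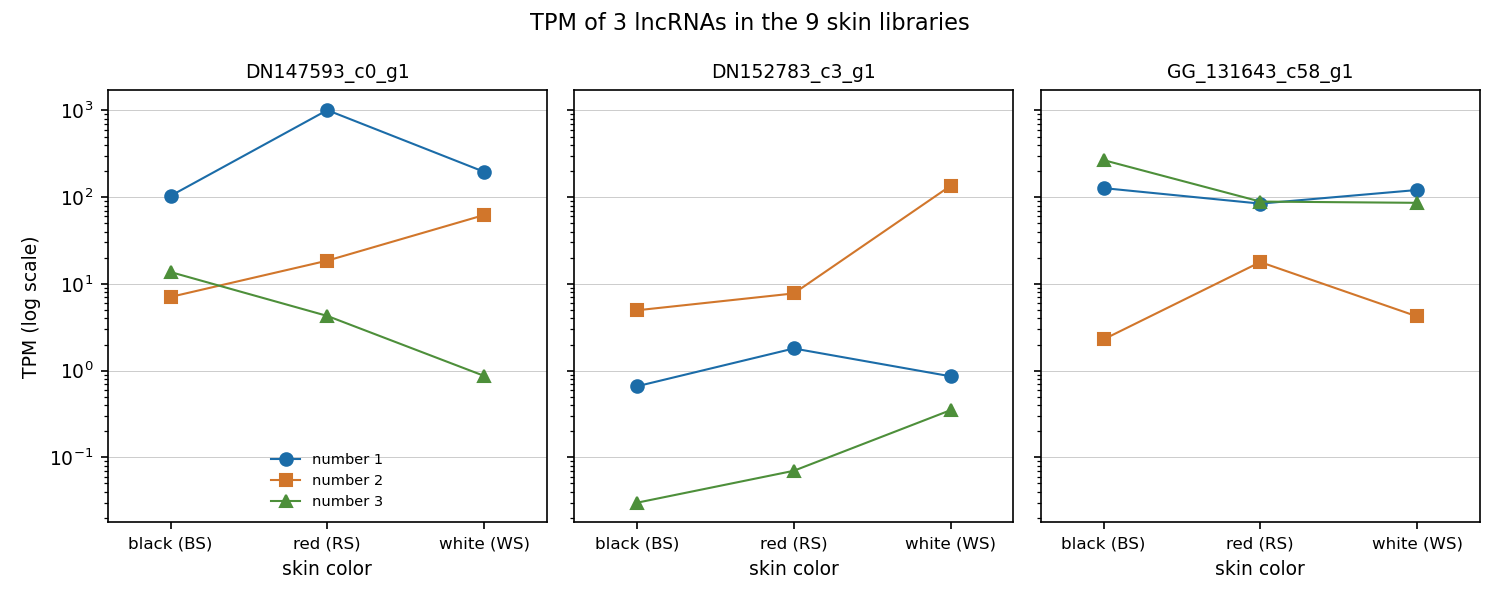
TPM (log scale) of each lncRNA in black, red and white skin, with 1 point per library and lines joining libraries of the same number. For Ccr_lnc15278331 (DN152783_c3_g1) the 3 numbers lie one above the other without overlap, for DN147593_c0_g1 number 1 is on top at 103 to 1007 TPM, and for Ccr_lnc131643581 (GG_131643_c58_g1) number 2 is at the bottom at 2.29 to 17.8 TPM.

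When the libraries were grouped by number instead of color, 1 number stood apart from the other 6 libraries for each of the 3 lncRNAs. DN147593_c0_g1 was at 103 to 1007 TPM in number 1, 7.07 to 62.2 in number 2 and 0.87 to 13.7 in number 3. Ccr_lnc15278331 was at 4.96 to 135 TPM in number 2, 0.66 to 1.8 in number 1 and 0.03 to 0.35 in number 3, which is a full order without overlap. Ccr_lnc131643581 was at 2.29 to 17.8 TPM in number 2, against 84.2 to 127 in number 1 and 86 to 267 in number 3. Its number 2 libraries are also those for which the study's lists hold other FPKM. In number 2 the fragment size was 346 to 359 bp, above the mean length of DN147593_c0_g1 there, 311 to 315 bp. The mean length of Ccr_lnc131643581 there was 388 to 470 bp. Whether fragment size affected these levels was not tested. Among the 78848 features kept by edgeR's filter over all libraries, 42.7% had 1 number entirely above or below the other 6 libraries, and 7.42% had all 3 numbers in a full order. The same count by color gave 2.1% with 1 color apart and 0.0609% in a full order, and none of the 3 lncRNAs was among either. On the log2(TPM + 1) scale, replicate number accounted for 77.5% of the sum of squares of DN147593_c0_g1, 68.9% of that of Ccr_lnc15278331 and 86.4% of that of Ccr_lnc131643581. Color accounted for 2.6%, 11.4% and 0.9%, respectively. Over all kept features the medians were 56.8% for number and 11.6% for color, so that a larger share for number than for color was general in these libraries. What a number stands for was not tested.

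To ask whether the lncRNAs differed between skin colors, each pair of colors was fitted over all features with edgeR's quasi-likelihood test, calling features with FDR up to 0.05 and a log2 fold change of 1 or more in size. The 3 lncRNAs passed the filter on low counts in all 3 pairs. In each pair 0 of the 3 was called, beside a background of 0% of 68812 features for black against white skin, 0% of 65727 for red against black and 0% of 66740 for red against white. Nothing is read from this count, since the lncRNAs were chosen on values of these libraries. Before adjustment edgeR gave 262, 216 and 271 features an unadjusted p under 0.05 in the respective pairs, or 0.381%, 0.329% and 0.406%. With a block on replicate number the shares were 1.98%, 1.9% and 1.63%. All lay below the share of 0.05 that evenly spread p-values would give, so that these fits were conservative here. DESeq2 called 43, 33 and 58 features and edgeR's exact test 43, 21 and 49, without any of the 3 lncRNAs. DESeq2 gave no p for DN147593_c0_g1 in the pairs on which it was chosen, nor for Ccr_lnc15278331 between red and white skin. With no filter on low counts, edgeR called 355 of 285309 features for red against black skin and 346 of 279939 for red against white. DN147593_c0_g1 was among them in both of its listed pairs (log2 fold change 3.69 against black and 3.39 against white skin). Nothing is read from this, since these pairs were used to choose it. The 3 comparisons share libraries, each color entering 2 of them. Differences below are given first from edgeR's quasi-likelihood fit, as log2 fold change ± an approximate standard error. That error is the size of the fold change divided by the square root of the test's F statistic. TPM ratios between libraries of the same number follow.

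DN147593_c0_g1 had a fitted log2 fold change of 3.77 ± 2.46 between red and black skin. Between red and white skin, the other pair on which it was chosen, the value was 3.49 ± 2.51. Both values rested on red library 1, since without that library they were -3.28 and -3.55. Without all libraries numbered 1 they were -0.31 and -1.18. Blocking on replicate number gave 1.55 ± 1.12 and 1.44 ± 1.41. Within number 1 the TPM of red skin was 9.75 times that of black skin (95% counting interval 8.22 to 11.6) and 5.14 times that of white skin (4.47 to 5.94). Within number 2 red skin was 2.62 times black skin (1.13 to 6.58), whereas white skin was 3.35 times red skin (1.97 to 5.89). Within number 3 black skin was 3.21 times red skin (1.15 to 11), and red against white compared 5 counts with 1, a ratio of 4.91 with an interval of 0.549 to 232. Red skin was thus the highest color in number 1, white skin in number 2 and black skin in number 3. In BS against WS, for which it was not listed, the fitted log2 fold change was -0.23 ± 1.76, and -0.1 ± 1.08 with the block. The direction differed by number: white skin was 1.9 times black skin in number 1 and 8.79 times in number 2, while black skin was 15.7 times white skin in number 3, from 18 counts against 1.

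Ccr_lnc15278331 had a fitted log2 fold change of -2.07 ± 1.55 in BS against WS, the pair on which it was chosen, and of 1.12 without white library 2. The blocked value was -1.23 ± 0.68. Its TPM was lower in black than in white skin in all 3 numbers. White skin was 27.2 times black skin in number 2 (21.1 to 35.2), 11.7 times in number 3 (2.74 to 46.4, from 8.13 against 3.56 expected counts) and 1.3 times in number 1 (0.602 to 2.75). Expected counts alone were 7.86, 2.28 and 1.15 times as high in white skin. The effective length by which they are divided was 2.58 times longer in black than in white skin in number 2 and 3.78 times longer in number 3. In RS against WS the fitted value was -2.27 ± 1.56, and 0.95 without white library 2, the library on which it passed the threshold. Blocked on replicate number it was -1.41 ± 1.06. White skin was 17.4 times red skin in number 2 and 5 times in number 3, and red skin was 2.09 times white skin in number 1. In RS against BS, where no library passed the threshold, the fitted value was -0.17 ± 1.29 (edgeR FDR = 1), and -0.17 ± 0.64 with the block (edgeR FDR = 1). An exact two-sided permutation test of the 3 against 3 libraries, without pairing, gave p = 0.6, where 0.1 is the smallest p possible. Nothing is read from these tests, because the black libraries also entered the pair for which this lncRNA was listed. By TPM, red skin exceeded black skin in all 3 numbers, by 2.73, 1.56 and 2.33 times. By expected count, red skin was lower in number 2 (54.2 against 70.7) and in number 3 (1.72 against 3.56). On CPM with TMM library sizes, a count scaled by a library total that is adjusted for composition, red skin was likewise higher in 1 of 3 numbers only, so that the direction of this pair changed with the scale.

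Ccr_lnc131643581 had a fitted log2 fold change of 1.13 ± 1.39 in BS against WS, the pair on which it was chosen, and of 1.08 ± 0.31 with the replicate block. Black skin was 3.11 times white skin by TPM in number 3 (2.64 to 3.67) and 1.05 times in number 1 (0.886 to 1.26), while white skin was 1.84 times black skin in number 2 (0.857 to 3.96). In RS against BS the fitted value was -0.4 ± 1.28, and -0.06 ± 0.52 with the block. Black skin was 3.01 times red skin in number 3 and 1.51 times in number 1, whereas red skin was 7.79 times black skin in number 2. In RS against WS the fitted value was 0.72 ± 1.25, and 1.02 ± 0.39 with the block. Red skin was 4.23 times white skin in number 2 and 1.03 times in number 3, and white skin was 1.44 times red skin in number 1.

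**Figure D2:**
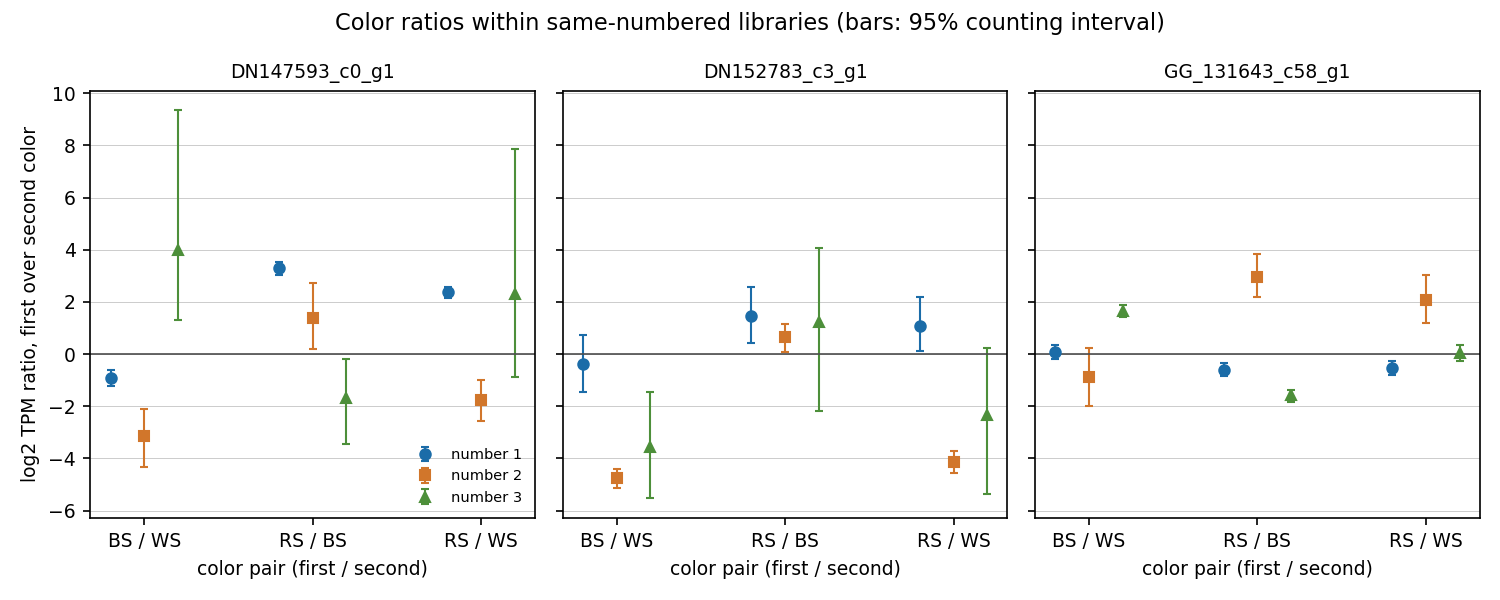
Log2 TPM ratio of the first over the second color for each lncRNA and pair of colors, with 1 point per replicate number and bars for the 95% counting interval of that library pair. Points on both sides of 0 occur in 7 of the 9 lncRNA and pair combinations, and Ccr_lnc15278331 (DN152783_c3_g1) lies below 0 in BS / WS and above 0 in RS / BS in all 3 numbers.

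The TPM scale itself was not level between same-numbered libraries. The median log2 TPM ratio over the kept features detected in both libraries ranged from -1.35 to 0.83 and exceeded 0.1 in size in 7 of the 9 library pairs. Relative to this median, Ccr_lnc131643581 was higher in red than in white skin in all 3 numbers, by a log2 value of 0.83, 2.09 and 0.38 in numbers 1, 2 and 3, although plain TPM was lower in red skin in number 1. In number 1 of RS against BS its difference became 0.11. On CPM with TMM library sizes the differences between red and white skin were 0.86, 2.07 and 0.31. In BS against WS its difference on that scale was 0.71, 0.8 and 1.65, higher in black skin in all 3 numbers. Relative to the median TPM ratio it was 0.74, -0.02 and 1.7, so that the direction in number 2 depended on the scale. DN147593_c0_g1 kept the directions of its plain TPM ratios in all 9 of its library pairs relative to the median. Ccr_lnc15278331 changed direction in number 1 of BS against WS, where the difference became 0.28, and in number 2 of RS against BS, where it became -0.18.

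All 3 lncRNAs reached high values per length from short effective lengths, the part of a transcript from which a fragment of the library could start. DN147593_c0_g1 had an effective length of 41.2 to 44.7 bp in number 1, 19.2 to 20.7 bp in number 2 and 34.6 to 36.6 bp in number 3. Only 0.76% to 1.01% of detected kept features were shorter than it in the same library. A single read pair was consequently worth 0.645 to 0.979 TPM, against 0.018 to 0.0405 TPM on a feature of median effective length. In red library 1 it ranked 121 by TPM and 649 by expected count. In the remaining libraries its rank by count lay between 6272 and 136931. For Ccr_lnc131643581 the effective length was 64.6 to 75.1 bp in 8 libraries and 118 bp in black library 2, and its best rank by count was 3108, in black library 3. The effective length of Ccr_lnc15278331 varied 33.1 times, from 83.3 bp in white library 2 to 2754 bp in black library 3, while 4 libraries lay between 727 and 735 bp. Its most abundant library was therefore also the one in which the reads were assigned to its shortest mix of isoforms, and which isoforms these were was not analysed here.

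**Figure D3:**
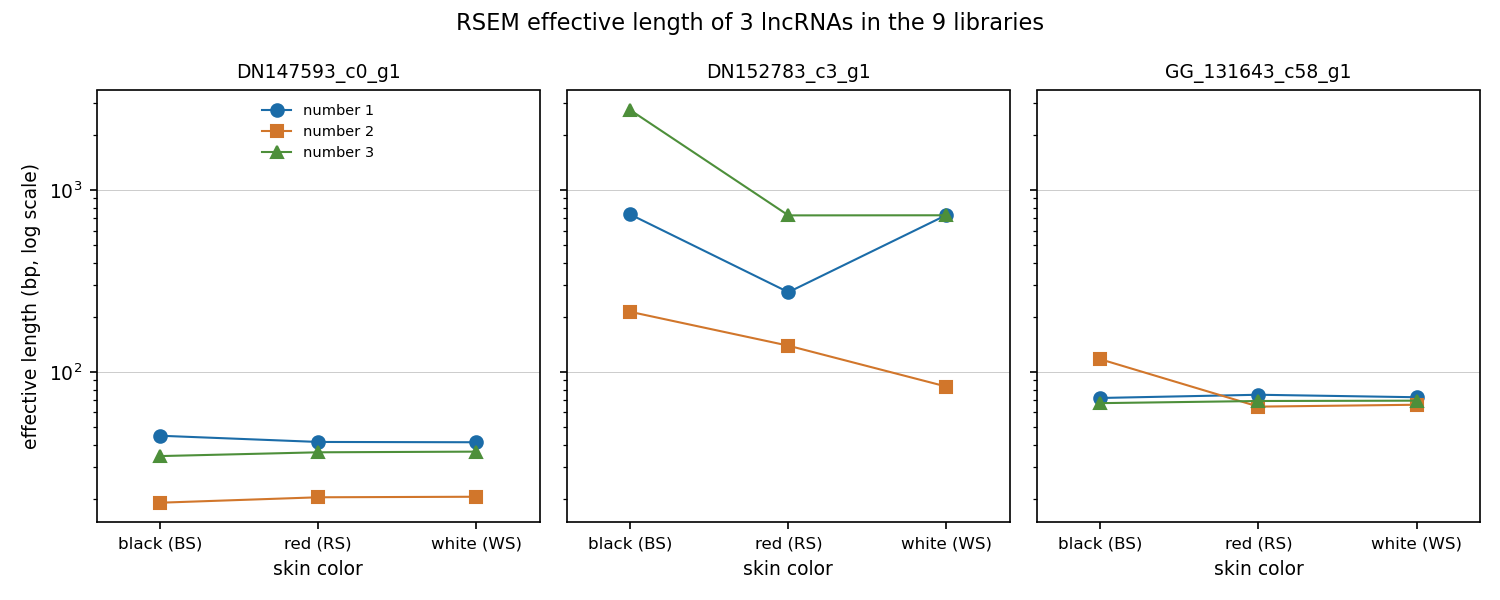
RSEM effective length (bp, log scale) of each lncRNA by skin color, with 1 point per library and lines joining libraries of the same number. Ccr_lnc15278331 (DN152783_c3_g1) spans 83.3 to 2754 bp, whereas DN147593_c0_g1 stays between 19.2 and 44.7 bp and is shortest in number 2.

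Among the 92 listed lncRNAs, 10 exceeded 200 FPKM in at least 1 library. DN147593_c0_g1 was the fifth of these by its highest FPKM (2299 in red library 1), Ccr_lnc131643581 the eighth (548 in black library 3) and Ccr_lnc15278331 the ninth (290 in white library 2). TRINITY_GG_57643_c3_g1 led with 73390 FPKM in red library 1 and was above 200 FPKM in all 9 libraries. It was followed by TRINITY_DN160553_c2_g2 with 44770, TRINITY_GG_57617_c0_g1 with 12193 and TRINITY_DN15885_c0_g1 with 7808, each in red library 1. TRINITY_GG_57636_c40_g1 (1844), TRINITY_GG_22484_c0_g1 (632) and TRINITY_GG_158534_c14_g1 (264) were the other 3. Red library 1 was the library of the highest value for 7 of these 10, DN147593_c0_g1 included. The effective length at the highest value was under 100 bp for 9 of the 10, against 15 of the 91 listed lncRNAs detected at all. Just inside the threshold stood Ccr_lnc15278331 at 290 FPKM and TRINITY_GG_158534_c14_g1 at 264, and just outside TRINITY_DN172145_c2_g5 at 114 and TRINITY_GG_89007_c0_g1 at 108. DN147593_c0_g1 itself passed the threshold in black library 1 (219), red library 1 (2299) and white library 1 (397). Ccr_lnc131643581 passed it in black library 1 (269), black library 3 (548) and white library 1 (245), and Ccr_lnc15278331 in white library 2 only.

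**Figure D4:**
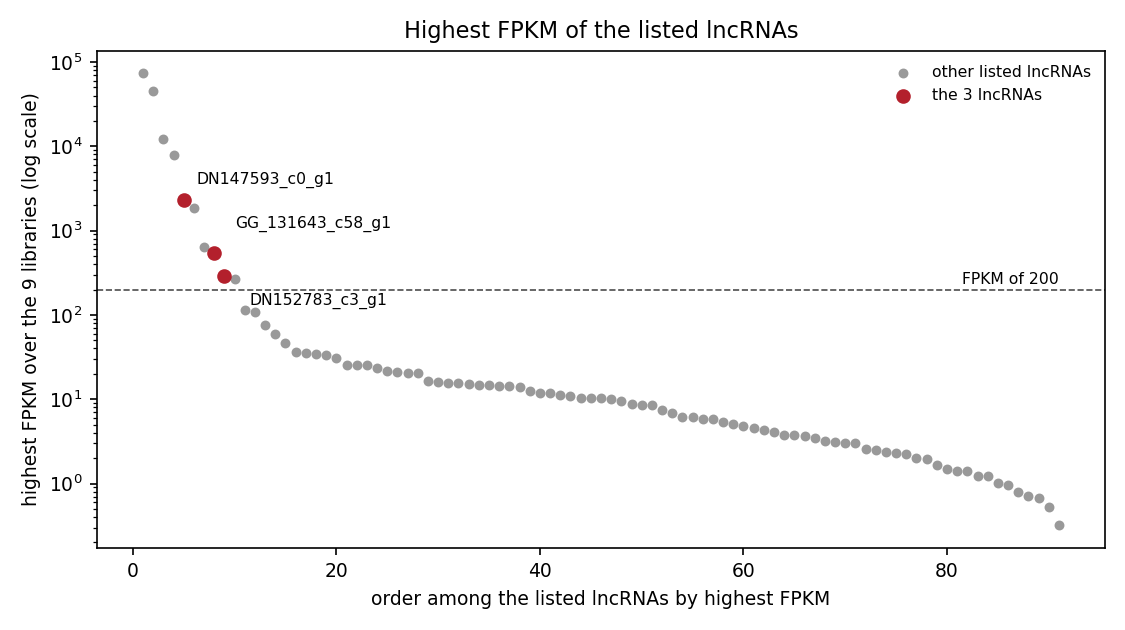
Highest FPKM over the 9 libraries (log scale) of the 91 listed lncRNAs detected in any library, in descending order, with the 3 lncRNAs in red and the threshold of 200 FPKM as a dashed line. The 3 lncRNAs take places 5, 8 and 9 of the 10 above the line.

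Ordered by median TPM over the 9 libraries, Ccr_lnc131643581 was the third of the 92 listed lncRNAs with a median of 86 TPM. DN147593_c0_g1 was the ninth with 18.5 TPM and Ccr_lnc15278331 was at place 20 with 0.86 TPM. Within single libraries Ccr_lnc131643581 was the most abundant listed lncRNA in black library 3, the second in red library 3 and white library 3, and at place 15 to 24 in black library 2 and white library 2. DN147593_c0_g1 was at place 5 to 8 in 7 libraries, and at places 20 and 28 in red library 3 and white library 3. Ccr_lnc15278331 ranged from place 3 in white library 2 to place 48 in black library 3. Among 942 assembled genes similar to zebrafish lncRNAs in the portion of the supplementary list that was read, it was at place 6 in white library 2 and between 73 and 572 elsewhere.

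The 3 lncRNAs did not share 1 profile over the 9 libraries. Pearson's r of log2(TPM + 1) was -0.8 between Ccr_lnc15278331 and Ccr_lnc131643581, 0.18 between DN147593_c0_g1 and Ccr_lnc15278331 and 0.14 between DN147593_c0_g1 and Ccr_lnc131643581 (n = 9 libraries). The points of the first pair are grouped by number, with the libraries numbered 2 high in one lncRNA and low in the other. After subtraction of the mean of each number its r was -0.18. The same subtraction gave 0.57 for DN147593_c0_g1 with Ccr_lnc15278331 and 0.23 for DN147593_c0_g1 with Ccr_lnc131643581. Without number 1, 2 or 3, r of DN147593_c0_g1 with Ccr_lnc15278331 was 0.79, 0.86 and -0.33 (n = 6 libraries). These coefficients are descriptions, because libraries of a number vary together.

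The features of most similar profile were sought by the same coefficient among 78848 kept features. For DN147593_c0_g1 they were TRINITY_GG_170345_c0_g1 (r = 0.948, at most 1.46 TPM), TRINITY_GG_4339_c1_g1 (r = 0.943, at most 4.03 TPM) and TRINITY_GG_57643_c3_g1 (r = 0.942). The last is itself a listed lncRNA and the most abundant of the 92, with 32160 TPM in red library 1 and 178 to 5342 TPM in the other libraries. For Ccr_lnc15278331 they were TRINITY_DN163523_c7_g1 (r = 0.984), TRINITY_DN163771_c0_g2 (r = 0.983) and TRINITY_DN154842_c2_g3 (r = 0.982), all highest in white library 2 and at no more than 2.22 TPM. For Ccr_lnc131643581 they were TRINITY_GG_158534_c14_g2 (r = 0.985), TRINITY_GG_158534_c14_g1 (r = 0.981) and TRINITY_GG_163181_c0_g1 (r = 0.98). The first 2 of these come from the same assembly component, and the second is another of the listed lncRNAs above 200 FPKM. It was at 45.7 to 129 TPM in the libraries numbered 1 and 3 and at 1.45 to 6.36 TPM in those numbered 2. Relative to the mean of each number, r was 0.709 to 0.786 for the neighbors of DN147593_c0_g1, 0.962 to 0.976 for those of Ccr_lnc15278331 and 0.889 to 0.962 for those of Ccr_lnc131643581. Because the neighbors were picked for the highest r in these same libraries, high values were partly fixed by the choice. Nothing is read from them. White library 2 held 89.1% of the TPM of Ccr_lnc15278331, and how far the r of its neighbors rests on that library was not tested. At r of 0.95 or more there were 0, 111 and 100 kept features, respectively. Such counts were not made for other kept features, so that no background stands beside them.

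**Figure D5:**
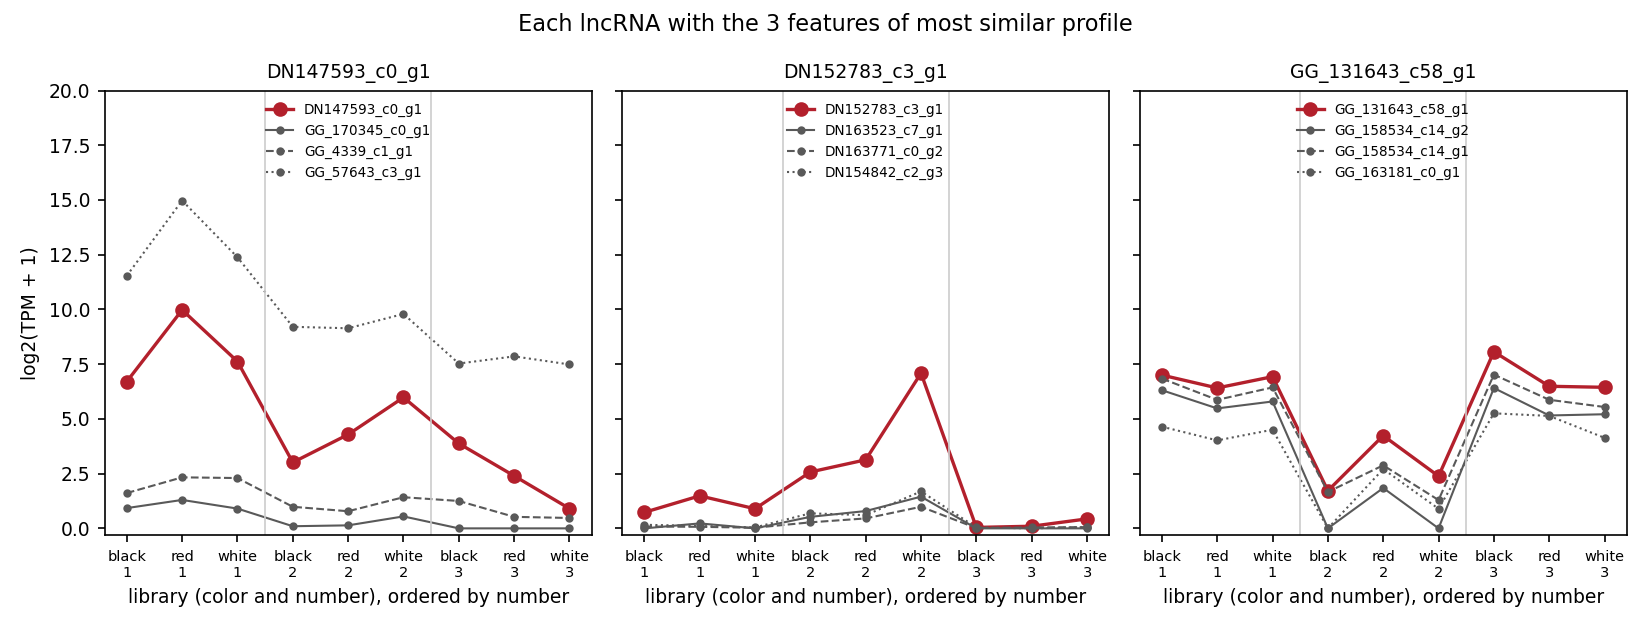
Log2(TPM + 1) of each lncRNA (red) and of the 3 kept features with the highest Pearson's r to it (gray), with the 9 libraries ordered by number and vertical lines between numbers. All lines of a panel move with the number, the gray features having been chosen for a similar profile. The gray lines of DN152783_c3_g1 stay at or below 2.22 TPM while the lncRNA reaches 135 TPM in white library 2.

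The clusters from which the 3 lncRNAs were assembled differed in size. The cluster of DN147593_c0_g1 held 1 other assembled gene, TRINITY_DN147593_c0_g2, which was at 0 in all 9 libraries. That of Ccr_lnc15278331 held 2 others, of which TRINITY_DN152783_c2_g2 was detected with 10 expected counts in all and at most 0.5 TPM, in white library 2. That of Ccr_lnc131643581 held 38 assembled genes, and 28 of the others were above 0. The most abundant of these, TRINITY_GG_131643_c14_g1, was at 212 TPM in black library 1 and at 15.3 to 87.2 TPM elsewhere, and it did not follow the low values of Ccr_lnc131643581 in number 2 in full, with 47.9 TPM in white library 2. TRINITY_GG_131643_c68_g1 was at 12.1 to 18.9 TPM in the libraries numbered 2 and at 2.61 to 7.61 TPM in the others, the opposite order. Reads shared between members of this cluster could have been divided differently among them in different libraries, which was not tested.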

How the data were processed

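Poly(A) RNA from 9 skin libraries was sequenced as 150 bp read pairs with a kit that does not mark strand, so that a lncRNA and an overlapping antisense transcript cannot be told apart. The authors mapped reads with TopHat2 2.0.10 to the common carp genome, assembled transcripts with Trinity and quantified them with RSEM, per the labels and methods. The labels give RSEM 1.2.21, and the methods name another version. The deposited expected counts are RSEM's unnormalized estimates of read pairs per assembled gene, the deposited TPM and FPKM values are scaled per effective length and library, and the deposited lengths are means over isoforms. All values are per library, and 0 sample columns were left unmapped. No genome coordinates or gene names were linked to the features, and 0 matched the RefSeq gene table.

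Rounded expected counts were filtered (filterByExpr, minimum count 10), TMM-normalized and tested in edgeR 4.0.16 (R 4.3.3) with Benjamini-Hochberg adjustment. DESeq2 1.42.0 and limma 3.58.1 served as alternatives, the latter on log2(TPM + 1) and log2(TPM + 0.1). Ranks, ratios and the exact permutation test used Python 3.11.15, numpy 2.4.6, pandas 2.3.3 and scipy 1.17.1, and figures matplotlib 3.10.9. Intervals of ratios are 95% Clopper-Pearson intervals of the paired counts, which cover counting error only. Deviations from the color means correlated at 0.468 to 0.753 between libraries of the same number and at -0.578 to -0.008 between others. Such deviations cancel out within a color, so that positive same-number correlations bring negative ones between other numbers on average. Every same-number correlation exceeded 0.1, so numbers were treated as pairing the libraries in the ratios and the blocked fits. That pairing rests on the labels' numbers and the same-number correlations. The other fits and the permutation test did not pair the libraries. The lncRNAs and lists were chosen with earlier results of these data known. Named features were the 3 lncRNAs, the 3 most correlated features of each, listed lncRNAs above 200 FPKM with the next 2 below, and the 2 most abundant mates of each in its Trinity cluster. Columns of the supplementary tables holding the authors' own comparisons were not used.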

Additional observations from a re-analysis of the deposited data

How the results depend on the processing

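With 3 libraries a color, leaving out any single library or number left the count of called features at 0 in all 3 pairs. So did the replicate block (0 in each pair), and the block changed no other call, though it moved log2 fold changes. That of DN147593_c0_g1 went from 3.77 to 1.55 in RS against BS and from 3.49 to 1.44 in RS against WS. In BS against WS it went from -0.23 to -0.1. That of Ccr_lnc15278331 went from -2.07 to -1.23 in BS against WS and from -2.27 to -1.41 in RS against WS. That of Ccr_lnc131643581 went from -0.4 to -0.06 in RS against BS and from 0.72 to 1.02 in RS against WS. Without a filter, 389 of 290342 features were called for black against white and 355 of 285309 for red against black. For red against white 346 of 279939 were called. DESeq2 called 43, 33 and 58 features in these pairs and edgeR's exact test 43, 21 and 49. With no filter DN147593_c0_g1 passed the threshold in RS against BS (log2 fold change 3.69) and RS against WS (3.39), the pairs on which it was chosen, and DESeq2 gave it no p there, nor Ccr_lnc15278331 in RS against WS. On log2(TPM + 1) and log2(TPM + 0.1) in limma, its values shrank to 1.02 and 1.00 in RS against BS and to 0.72 and 0.93 in RS against WS. On these scales RS against BS turned to 0.46 and 0.78 for Ccr_lnc15278331 and to 0.12 and 0.24 for Ccr_lnc131643581. The cause was not tested. Over all left-out libraries and numbers, DN147593_c0_g1 ranged from -3.27 to 2.1 in BS against WS, -3.28 to 6.78 in RS against BS and -3.55 to 5.89 in RS against WS. Ccr_lnc15278331 ranged from -3.23 to 1.12, -0.77 to 0.97 and -3.26 to 0.95 in the same pairs, and Ccr_lnc131643581 from 0.56 to 1.96, -1.44 to 0.21 and -0.31 to 1.6. The median rank by expected count was 59252 in BS and 62664 in RS for DN147593_c0_g1 and 8617 in RS for Ccr_lnc131643581. The median within-number log2 ratio of Ccr_lnc15278331, -3.54 in BS against WS and 1.22 in RS against BS, became -0.39 and 0.56 as a ratio of TPM + 1, and -1.21 and -0.55 on TMM-scaled CPM. Its r with Ccr_lnc131643581 was -0.42 on plain TPM, -0.18 relative to the number means and -0.79 to -0.45 with a number left out. The r of DN147593_c0_g1 ranged from -0.33 to 0.86 with Ccr_lnc15278331 and from -0.45 to 0.75 with Ccr_lnc131643581. Counts limit the libraries in which a lncRNA had under 10 expected counts, where a floor of 3 counts equals 1.94 to 2.94 TPM for DN147593_c0_g1.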
